A study of Homo sapiens with 9 samples.

Results

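Streptomycin (SM) was set against dihydrostreptomycin (DSM), its close analog, in SW620 cells, across 15343 genes of the 28307 in the count table. SM belongs to the aminoglycosides, antibiotics that act on bacterial ribosomes. It carries an aldehyde on its streptose sugar, and in DSM that aldehyde is reduced to an alcohol, which is the structural change this 1 pair of compounds differs by. SW620 is an established human line from a lymph node metastasis of a colon adenocarcinoma. The comparison used 6 of the 9 libraries of the series, taken by their labels: 3 cultures given 120 µM SM and 3 given 120 µM DSM, both for 48 h. A further 3 cultures, kept for the same 48 h with neither compound, show where each compound lies relative to untreated cells. The labels give the genotype of all 9 cultures as wild type, for a cancer line that carries mutations of its own. All 9 grew in suspension in coated low-attachment dishes, in a DMEM/F12 medium with N2 supplement, glucose, insulin, basic FGF and EGF. The series' design text calls 120 µM an EC50 without naming the response, and calls the replicates biological. Whether the 3 cultures of a group were started on separate days is not given in the sources used here.

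Several stress programs answer to reactive small molecules in epithelial cells. KEAP1 holds the transcription factor NRF2 for degradation until aldehydes, quinones or peroxides modify its cysteines, after which NRF2 switches on reductases, glutathione enzymes and iron-handling genes through antioxidant response elements. ATF4 is translated when eIF2α is phosphorylated, and drives amino acid synthesis, transport and tRNA charging. SREBP2 leaves the endoplasmic reticulum (ER) when sterols are scarce and drives the enzymes of cholesterol synthesis.

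Total counts were 39315662 to 54736041 in the SM libraries, 52602300 to 56301174 in the DSM libraries and 56583941 to 65562227 in the untreated libraries, and SM replicate 2 had the lowest total. The libraries numbered 1 lay apart from those numbered 2 and 3 in every group along the first principal component, which held 41.3% of the variance. SM replicate 2 lay apart from the other 8 along the second, which held 16.0%. The 7 colon epithelial markers were all tested, and their summed level was 11296 to 13539 CPM (read counts scaled to a common library total) with SM, 11587 to 14544 CPM with DSM and 11822 to 14880 CPM in untreated cells. Of these markers CDH1, KRT19 and VIL1 were lower with SM than with DSM. Of 30 markers of fibroblasts, endothelium and leukocytes, 11 passed the filter on low counts, and no list of 10 summed above 15.3 CPM in any library. The fibroblast genes COL3A1, DCN and FAP had no count in any of the 9 libraries. Since RNA came from whole cultures, fewer cells of a kind and less RNA per cell cannot be told apart in any result below.

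With SM, 275 genes were higher and 339 lower than with DSM, together 614 genes or 4% of those tested. The higher ones were 1.79% and the lower ones 2.21%, and the list counts below are to be read beside these shares. The genes were called at an adjusted p under 0.05 in edgeR's quasi-likelihood test. The fit held all 9 libraries, with the replicate number as a block. Most differences were small. The median absolute log2 fold change of the called genes was 0.22, 459 of the 614 had one under 0.322, 40 differed by at least 1.5-fold and 6 by at least 2-fold. Of the 614, 601 had the same direction in all 3 same-numbered pairs, against 5016 genes (32.7%) over all genes tested. The test that called the 614 blocks on these same pairs, so this agreement follows largely from how they were picked. The SM and DSM libraries did not overlap for 130 of the 614, against 1011 genes (6.59%) over all tested. By pair, the median absolute log2 difference of the called genes was 0.155 in pair 1, 0.267 in pair 2 and 0.255 in pair 3.

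The calls rested on the pairing. Without the block edgeR called 0 genes (393 at an unadjusted p under 0.05), limma voom called 0 and DESeq2 called 11, of which 10 were higher with SM, while with the block DESeq2 called 513 and voom 606. SM against untreated gave 3 calls without the block (0.0196%). Single libraries also moved the number: it was 404 without SM replicate 2, 327 without SM replicate 3, 295 without DSM replicate 2 and 277 without DSM replicate 3. All 614 genes kept their direction in each of these fits, which share most or all of their libraries with the fit of all 9. For the lists described below, 19 NRF2 and 18 ATF4 targets were higher and 21 cholesterol genes lower without SM replicate 2. The same counts were 20, 30 and 20 without the libraries numbered 1. Without those numbered 2 they were 15, 15 and 15, and without those numbered 3 they were 15, 10 and 14. Without the block, edgeR and voom called 0 in each of these lists, and DESeq2 called 9 NRF2 targets, 0 ATF4 targets and 0 cholesterol genes.

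**Figure D1:**
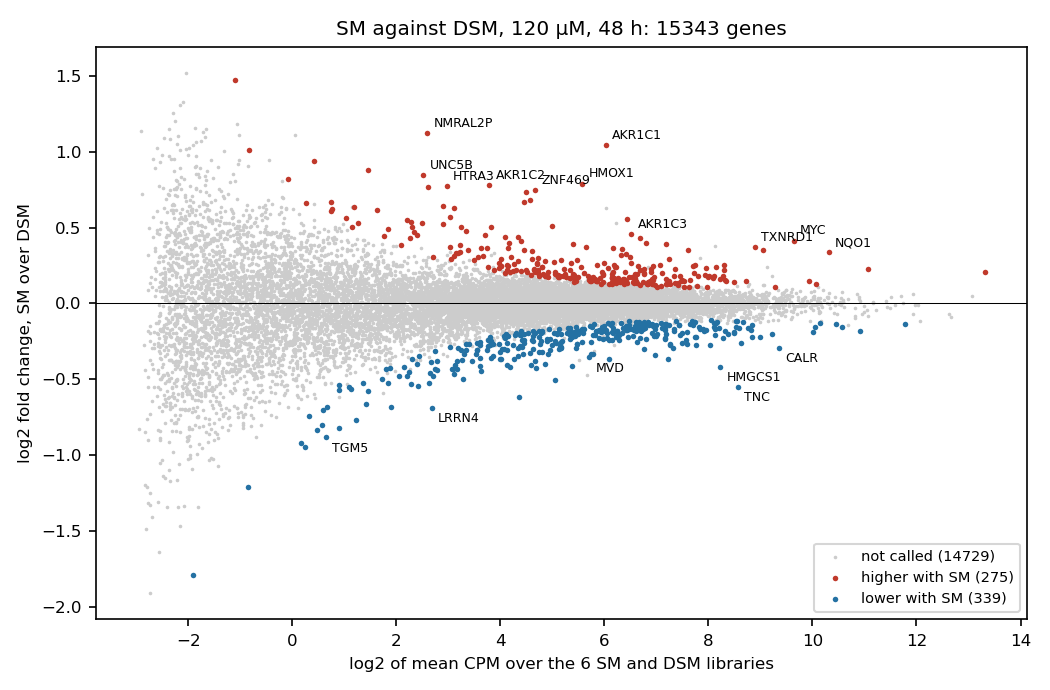
Difference between SM and DSM (log2 fold change, SM over DSM, vertical axis) against level (log2 of the mean CPM over the 6 SM and DSM libraries, horizontal axis) for 15343 genes, each a point. The 275 genes called higher with SM are red, the 339 called lower are blue and the rest grey, and most coloured points lie close to 0.

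Genes of the NRF2 program were higher with SM. Of 35 tested members of a 37-gene NRF2 target list, 23 were higher with SM than with DSM and 0 were lower, and the median log2 fold change was 0.23 against 0.00 over all genes. Members spanned reduction of carbonyls, quinones and lipid aldehydes, glutathione and thioredoxin supply, NADPH production, and storage of iron. The number of higher members stayed between 17 and 23 with each of the 9 libraries left out in turn, and 16 members were called in every such fit.

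Some of these genes hold letters of the antioxidant response element just upstream of their start. The motif searched was TGACNNNGC on either strand in the 250 bases before the RefSeq start, letters that can overlap an AP-1 site. It was present in 12.2% of the 11717 promoters of tested genes that have a RefSeq record, in 38 of 214 promoters (17.8%) of the genes higher with SM, in 10.8% of those lower, and in 7 of 25 NRF2 list promoters. The windows of the called members TXNRD1 (chr12:104215655-104215713, plus strand), GCLM (chr1:93909431-93909489, minus strand), GPX2 (chr14:64942834-64942892, minus strand) and ME1 (chr6:83431155-83431213, minus strand) are shown 5′ to 3′ from RefSeq GRCh38.p14 with the motif in capitals, to set their letters beside their levels given next. In TXNRD1 and ME1 the match runs with the gene, and in GCLM and GPX2 it is on the opposite strand. Other called members had no match in these bases, among them AKR1C1, AKR1C2, AKR1C3, NQO1, OSGIN1 and SRXN1. HMOX1 and NMRAL2P, also called, had no promoter record. A match is a run of letters and not evidence of binding.
TXNRD1: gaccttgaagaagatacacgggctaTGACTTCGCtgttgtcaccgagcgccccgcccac
GCLM: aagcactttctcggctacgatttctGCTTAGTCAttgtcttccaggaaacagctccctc
GPX2: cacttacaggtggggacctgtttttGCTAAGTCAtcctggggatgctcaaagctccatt
ME1: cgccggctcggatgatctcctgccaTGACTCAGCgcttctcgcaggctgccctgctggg

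Thioredoxin reductase TXNRD1, which recharges thioredoxin with electrons from NADPH, stood at 499, 572 and 539 CPM in SM replicates 1 to 3, 402, 448 and 393 CPM in the DSM replicates and 407, 437 and 395 CPM in the untreated ones. All 3 SM libraries were above all DSM libraries, with a log2 fold change of 0.37 (SE 0.03, adjusted p = 3.96e-07). GCLM, the modifier subunit of the enzyme that starts glutathione synthesis, had 79.0, 102 and 92.7 CPM with SM, 65.9, 76.9 and 70.6 CPM with DSM and 67.9, 79.4 and 73.5 CPM untreated (log2 fold change 0.36, SE 0.04, adjusted p = 2.76e-06). Its groups did not overlap either. The gastrointestinal glutathione peroxidase GPX2 gave 341, 346 and 348 CPM with SM, 286, 289 and 293 CPM with DSM and 279, 283 and 285 CPM untreated. Replicates of GPX2 varied by less than the gap between the compounds, and the log2 fold change was 0.26 (SE 0.03, adjusted p = 1.3e-05). Malic enzyme ME1, a cytosolic source of NADPH, had 76.9, 74.9 and 72.7 CPM with SM, 67.1, 67.3 and 64.2 CPM with DSM and 69.5, 63.4 and 64.3 CPM untreated (log2 fold change 0.18, SE 0.04, adjusted p = 0.00561). Its call was lost without DSM replicate 1, at an adjusted p of 0.0501.

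Aldo-keto reductases were among the higher members. These enzymes reduce aldehydes and ketones, and AKR1C1 (chr10:4963415-4983283) is best known for reducing steroids such as progesterone. Its level was 61.9, 111 and 92.7 CPM with SM, 32.7, 48.1 and 46.6 CPM with DSM and 31.9, 51.1 and 43.7 CPM untreated. The lowest SM library lay above the highest DSM library, and the log2 fold change was 1.04 (SE 0.05, 95% interval 0.95 to 1.14, adjusted p = 7.42e-13). AKR1C2 (chr10:4987775-5018000), its closest relative, had 16.3, 19.7 and 16.7 CPM with SM, 10.4, 10.1 and 9.98 CPM with DSM and 9.01, 10.4 and 8.45 CPM untreated (log2 fold change 0.78, SE 0.07, adjusted p = 3.76e-07). AKR1C3 (chr10:5048781-5107686), a prostaglandin and androgen reductase, had 106, 110 and 102 CPM with SM, 80.8, 72.1 and 78.7 CPM with DSM and 75.9, 71.8 and 69.6 CPM untreated (log2 fold change 0.46, SE 0.04, adjusted p = 3.76e-07). For both, every SM library was above every DSM library. AKR1B10, which reduces retinal and lipid aldehydes, was scarce, with 4.12, 3.73 and 2.85 CPM with SM, 2.41, 1.14 and 2.25 CPM with DSM and 2.1, 1.29 and 0.9 CPM untreated. Its log2 fold change of 0.88 (SE 0.20, adjusted p = 0.0209) was no longer called without SM replicate 2 (0.093), SM replicate 3 (0.0794) or DSM replicate 2 (0.108). The AKR1C genes are related in sequence, AKR1C1 and AKR1C2 most closely, so reads may be split or shared among them. Of 30 tested aldo-keto and carbonyl reductases, 6 were higher with SM (these 4, NQO1 and the retinol dehydrogenase RDH13) and 1 was lower (RDH11), with a median of 0.05. RDH13 (log2 fold change 0.17, adjusted p = 0.038) and RDH11 (log2 fold change −0.14, adjusted p = 0.0482) were named after their values were seen, and both lost their calls without DSM replicate 2, among others, at 0.163 and 0.21.

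HMOX1 and NQO1 are the textbook reporters of NRF2. Heme oxygenase HMOX1 (chr22:35381096-35394207), which opens heme to biliverdin, iron and carbon monoxide, stood at 58.8, 72.8 and 49.8 CPM with SM, 37.3, 37.2 and 29.9 CPM with DSM and 40.1, 37.7 and 26.2 CPM untreated. SM libraries did not overlap DSM libraries, and the log2 fold change was 0.79 (SE 0.06, 95% interval 0.65 to 0.92, adjusted p = 1.36e-06). The quinone reductase NQO1 had 1292, 1589 and 1399 CPM with SM, 1091, 1137 and 1152 CPM with DSM and 1083, 1165 and 1129 CPM untreated (log2 fold change 0.34, SE 0.04, adjusted p = 1.05e-05), again without overlap. OSGIN1, a growth inhibitor induced by oxidative stress, had 25.1, 34.1 and 28.8 CPM with SM, 17.8, 17.0 and 19.5 CPM with DSM and 18.7, 19.0 and 18.7 CPM untreated (log2 fold change 0.68, SE 0.07, adjusted p = 1.05e-05). The transcribed pseudogene NMRAL2P, whose RNA is an NRF2 target, had 4.78, 12.3 and 7.87 CPM with SM, 2.07, 5.16 and 4.19 CPM with DSM and 1.88, 5.34 and 3.47 CPM untreated. Its groups overlapped, yet each SM library lay above the DSM library of the same number, and the log2 fold change was 1.12 (SE 0.10, adjusted p = 3.76e-07). Each of these 4 genes was called with any single library left out.

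**Figure D2:**
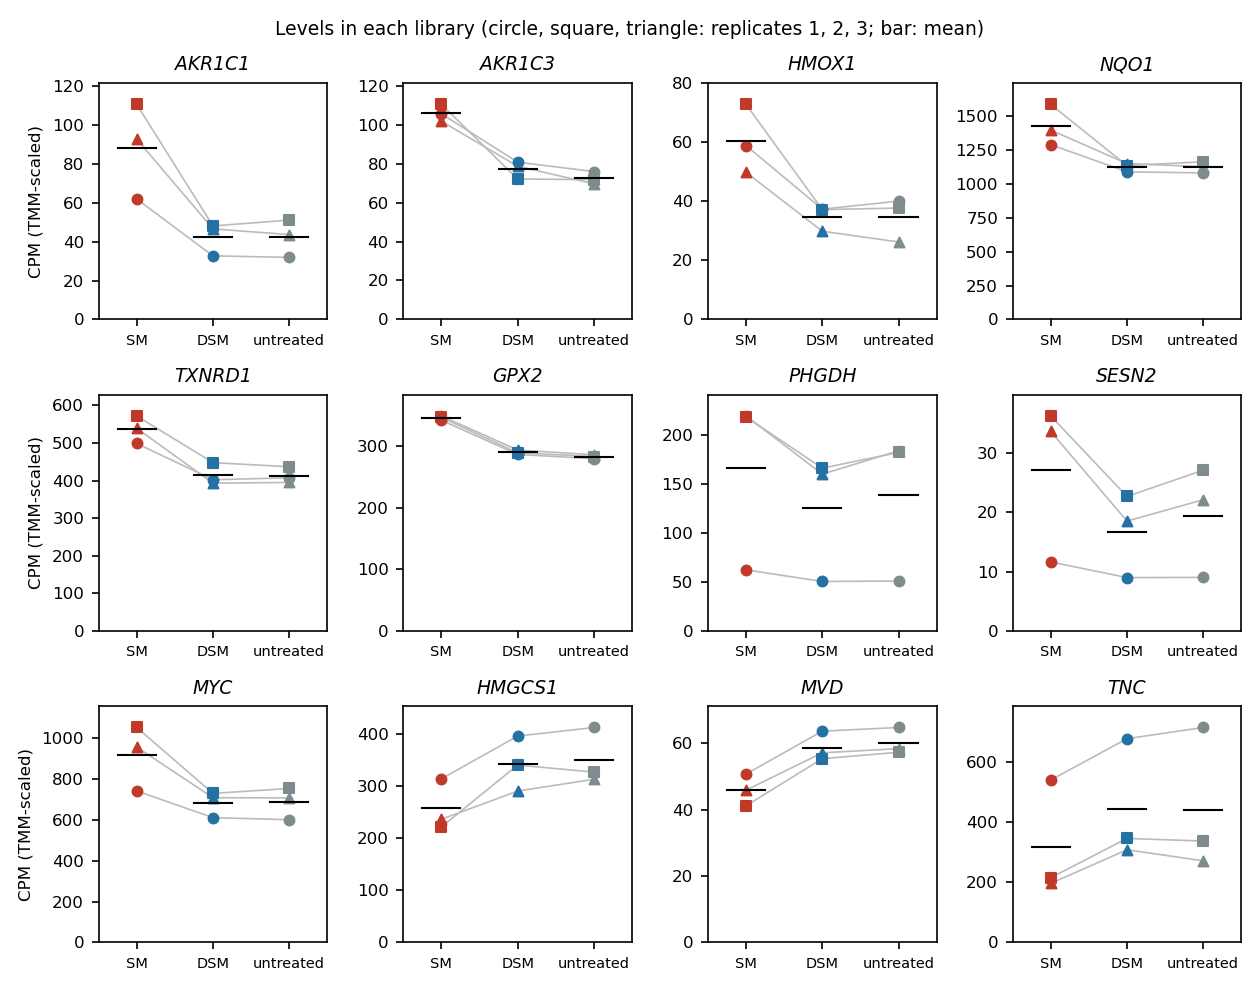
Levels of 12 genes in each of the 9 libraries (CPM scaled by TMM, vertical axes from 0), with SM red, DSM blue and untreated grey. Circles, squares and triangles are replicates 1, 2 and 3, lines join libraries of the same number and bars are group means. DSM lies near untreated for AKR1C1 (means 42.4 and 42.2 CPM), while the SM mean is 88.4 CPM.

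Among 39 tested glutathione, thioredoxin and peroxide enzymes, 9 were higher with SM and 0 lower (5 without DSM replicate 2), with a median log2 fold change of 0.03, so most of the list lay near 0. Sulfiredoxin SRXN1, which repairs over-oxidised peroxiredoxins, had 143, 194 and 161 CPM with SM, 123, 149 and 133 CPM with DSM and 131, 153 and 135 CPM untreated (log2 fold change 0.29, SE 0.04, adjusted p = 2.46e-05). Those groups overlapped. Glutathione peroxidase GPX4, which detoxifies lipid peroxides and is a selenoprotein like TXNRD1 and GPX2, had 196, 209 and 210 CPM with SM, 206, 190 and 203 CPM with DSM and 201, 199 and 200 CPM untreated, and was not called (adjusted p = 0.677). The 95% interval of its log2 fold change ran from −0.04 to 0.11. The ferritin light chain FTL averaged 2304 ± 274 CPM with SM and 1963 ± 119 CPM with DSM (SD, n = 3 each), with a log2 fold change of 0.23 (SE 0.04, adjusted p = 0.00217). The heavy chain FTH1 averaged 10885 ± 917 CPM with SM and 9430 ± 251 CPM with DSM (SD, n = 3 each), with a log2 fold change of 0.20 (SE 0.04, adjusted p = 0.00224). Both chains form the shell that stores iron, and processed pseudogenes of both could take or give reads. Of 30 tested iron and heme genes, 5 were higher and 0 lower (3 higher without SM replicate 3, DSM replicate 2, DSM replicate 3 or untreated replicate 3), namely HMOX1, FTL, FTH1, and ISCU and FECH. ISCU, a scaffold for iron-sulfur clusters, lost its call without SM replicate 3 (0.281), among others. FECH, the enzyme that puts iron into heme, was named after its value was seen and lost its call without DSM replicate 2 (0.266), among others. The transferrin receptor TFRC, the route of iron uptake, had 664, 632 and 602 CPM with SM, 538, 629 and 516 CPM with DSM and 506, 623 and 544 CPM untreated, and was not called (log2 fold change 0.18, 95% interval 0.07 to 0.29, adjusted p = 0.0815). The test of TFRC SM against DSM passed without SM replicate 2 (adjusted p = 0.000583) or untreated replicate 1 (0.0267), and in 5 of the other settings tried, including voom with the block (0.036).

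Since the compounds differ by an aldehyde, the enzymes that oxidise aldehydes were examined as a list of their own. Of 23 tested aldehyde and alcohol dehydrogenases, 4 were higher with SM and 0 lower, and the median log2 fold change was 0.04. ALDH3A1, which oxidises lipid and aromatic aldehydes, had 99.4, 107 and 92.0 CPM with SM, 85.4, 78.2 and 76.8 CPM with DSM and 83.1, 78.7 and 71.4 CPM untreated. Its groups did not overlap, the log2 fold change was 0.31 (SE 0.04, adjusted p = 4.14e-05) and the call held with any single library left out. ALDH3A2, a fatty aldehyde dehydrogenase, had a log2 fold change of 0.15 (SE 0.04, adjusted p = 0.0174). That call was lost without SM replicate 3 (0.123), DSM replicate 2 (0.112) or DSM replicate 3 (0.123). ALDH5A1, the succinic semialdehyde dehydrogenase, had 17.6, 19.2 and 18.1 CPM with SM, 15.5, 16.1 and 16.1 CPM with DSM and 17.0, 17.7 and 18.5 CPM untreated, so the untreated libraries lay nearer to SM. Its adjusted p of 0.0482 rose to between 0.071 and 0.185 with each of the 9 libraries left out. The fourth, the mitochondrial folate enzyme ALDH1L2, is also an ATF4 target. It was not called without SM replicate 3 (0.123) or DSM replicate 3 (0.233), and only 1 member was called without SM replicate 3 or without DSM replicate 3, and 2 without DSM replicate 2. The principal acetaldehyde and formaldehyde enzymes were not called. ALDH2 had 135, 140 and 148 CPM with SM, 143, 137 and 149 CPM with DSM and 146, 142 and 153 CPM untreated (log2 fold change −0.02, 95% interval −0.08 to 0.05). ADH5, which oxidises formaldehyde bound to glutathione, had 51.3, 48.3 and 50.5 CPM with SM, 54.0, 49.5 and 47.5 CPM with DSM and 52.8, 51.0 and 50.7 CPM untreated (log2 fold change −0.01, 95% interval −0.09 to 0.08). ALDH1A1, a retinal dehydrogenase used as a stem cell marker, was lower in all 3 pairs but was not called (log2 fold change −0.21, 95% interval −0.37 to −0.04, adjusted p = 0.172). None of the 26 tested crosslink repair genes was called by edgeR, DESeq2 or voom with the block (1 at an unadjusted p under 0.05 in edgeR), and all 26 had 95% intervals within 0.322 of 0 on the log2 scale.

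The ATF4 program was higher with SM as well. Of 40 tested targets, 23 were higher and 0 lower, with a median log2 fold change of 0.28, and 13 were called with every single library left out. The higher members include serine and one-carbon enzymes (PHGDH, PSPH, MTHFD2, ALDH1L2), amino acid transporters (SLC7A11, SLC7A5, SLC7A1, SLC3A2, SLC1A4), proline and alanine enzymes (PYCR1, GPT2), the transcription factors ATF3, CEBPB and CEBPG, and secreted factors (VEGFA, GDF15, INHBE, STC2). The list's median log2 difference was 0.11 in pair 1, 0.31 in pair 2 and 0.39 in pair 3, and 10 members were called without the libraries numbered 3.

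PHGDH, which starts serine synthesis, had 62.4, 219 and 220 CPM with SM, 50.6, 166 and 160 CPM with DSM and 51.0, 183 and 184 CPM untreated. Libraries numbered 1 were low in all groups, so the groups overlapped, while each SM library exceeded its DSM partner (log2 fold change 0.39, SE 0.04, adjusted p = 3.76e-07). SESN2, which restrains mTORC1 when amino acids run low, had 11.6, 36.3 and 33.6 CPM with SM, 9.0, 22.7 and 18.5 CPM with DSM and 9.03, 27.1 and 22.1 CPM untreated (log2 fold change 0.67, SE 0.07, adjusted p = 1.36e-06). For both genes DSM lay below untreated, at log2 fold changes of −0.12 for PHGDH (95% interval −0.20 to −0.05) and −0.19 for SESN2 (−0.33 to −0.05), neither of them called. The secreted glycoprotein STC2 had 81.9, 158 and 145 CPM with SM, 70.0, 110 and 108 CPM with DSM and 66.4, 122 and 104 CPM untreated (log2 fold change 0.40, SE 0.04, adjusted p = 6.37e-06). The cystine importer SLC7A11, shared with the NRF2 list, had 78.0, 115 and 91.4 CPM with SM, 63.7, 96.3 and 68.3 CPM with DSM and 66.6, 97.6 and 67.8 CPM untreated (log2 fold change 0.33, SE 0.04, adjusted p = 1.69e-05). Both sets of groups overlapped, with every pair in the same direction. VEGFA, the angiogenic growth factor, differed by a log2 fold change of 0.37 (SE 0.05, adjusted p = 2.21e-05). For the stress cytokine GDF15 it was 0.24 (SE 0.04, adjusted p = 0.000714).

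CHAC1, which breaks down glutathione, and ATF3, a repressor induced by ATF4, hold letters of the amino acid response element upstream of their starts. The motif TGATGNAA, which can overlap C/EBP sites, was searched on both strands of the same 250 bases. It occurred in 1.5% of all promoters, in 2.34% of those of the genes higher with SM and in 1.87% of those lower. In the ATF4 list it was in 4 of 30 promoters, and CHAC1 and ATF3 were the only called members among these. Called members without a match included PHGDH, SESN2 and STC2, while SLC7A11 and VEGFA had no promoter record. The windows of CHAC1 and ATF3 (CHAC1 chr15:40953237-40953294, match on the opposite strand, and ATF3 chr1:212565191-212565248, match with the gene, both plus strand) come from RefSeq GRCh38.p14, with the motif in capitals.
CHAC1: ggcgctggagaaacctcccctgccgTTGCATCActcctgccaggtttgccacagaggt
ATF3: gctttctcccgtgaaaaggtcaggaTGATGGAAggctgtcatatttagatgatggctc
CHAC1 had 7.03, 38.2 and 39.8 CPM with SM, 5.83, 24.5 and 19.4 CPM with DSM and 4.89, 30.2 and 21.3 CPM untreated (log2 fold change 0.73, SE 0.13, adjusted p = 0.0228). The groups overlapped, and the call was lost without DSM replicate 2 (0.174) or DSM replicate 3 (0.105). ATF3 had 5.92, 12.2 and 9.61 CPM with SM, 5.24, 8.84 and 7.15 CPM with DSM and 5.94, 9.30 and 7.27 CPM untreated (log2 fold change 0.37, SE 0.09, adjusted p = 0.0128). It was not called without SM replicate 2 (0.0967), SM replicate 3 (0.118), DSM replicate 2 (0.0978) or DSM replicate 3 (0.0789).

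In the fit of all 9 libraries, ASNS and DDIT3 of the same response did not pass the test. ASNS, the asparagine synthetase, was scarce in these cells at 2.16, 7.70 and 9.01 CPM with SM, 1.98, 6.30 and 6.19 CPM with DSM and 1.95, 6.36 and 5.39 CPM untreated (log2 fold change 0.37, 95% interval 0.15 to 0.59, adjusted p = 0.0548). DDIT3, the factor CHOP that precedes cell death under ER stress, had 10.3, 24.7 and 14.8 CPM with SM, 10.3, 14.1 and 13.6 CPM with DSM and 9.96, 16.3 and 13.2 CPM untreated (95% interval 0.06 to 0.60, adjusted p = 0.196). Its difference lay almost wholly in replicate 2. Without SM replicate 1 both were called, at an adjusted p of 0.0154 in ASNS SM against DSM and 0.00489 in DDIT3 SM against DSM, and DDIT3 also without DSM replicate 1 (0.0439). Both were called too when no filter on low counts was applied and without all libraries numbered 1. Of 20 cytosolic aminoacyl-tRNA synthetases, which charge tRNAs with their amino acids, 7 were higher and 0 lower, with a median of 0.09. None stayed called in every fit with 1 library left out, and 0 were called without SM replicate 3 or without DSM replicate 3, 2 without DSM replicate 2 and 4 without SM replicate 2. SARS1, the seryl enzyme, had 161, 261 and 262 CPM with SM, 154, 224 and 212 CPM with DSM and 152, 224 and 218 CPM untreated (log2 fold change 0.20, SE 0.04, adjusted p = 0.00261). GARS1, the glycyl enzyme, had a log2 fold change of 0.22 (SE 0.04, adjusted p = 0.00294). Without DSM replicate 3 their adjusted p was 0.0567 for SARS1 and 0.0697 for GARS1, and without SM replicate 3 it was 0.0524 and 0.0642. GARS1 was also not called without SM replicate 2 (0.0861).

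Cholesterol synthesis ran the other way. Of 26 tested genes, 20 were lower with SM than with DSM and 0 higher, and the median log2 fold change was −0.25. All 26 had a negative log2 fold change. The lower genes included members of the route from acetyl-CoA to mevalonate (ACAT2, HMGCS1, MVK, MVD), the isoprenoid steps (IDI1, FDPS), squalene and lanosterol formation (FDFT1, SQLE, LSS), the later sterol steps (CYP51A1, TM7SF2, NSDHL, HSD17B7, EBP, SC5D, DHCR7) and the regulator INSIG1. Between 16 and 21 were lower with each single library left out, and 15 were called in every such fit.

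HMGCS1, which makes HMG-CoA, had 314, 221 and 236 CPM with SM, 395, 340 and 290 CPM with DSM and 412, 326 and 313 CPM untreated. SM replicate 1 overlapped the DSM range, but each SM library was below its DSM partner (log2 fold change −0.42, SE 0.04, adjusted p = 3.1e-06). MVD, which makes isopentenyl diphosphate, had 50.7, 41.2 and 45.9 CPM with SM, 63.6, 55.3 and 57.1 CPM with DSM and 64.7, 57.2 and 58.3 CPM untreated (log2 fold change −0.35, SE 0.04, adjusted p = 6.37e-06). The sterol isomerase EBP had 219, 190 and 185 CPM with SM, 258, 226 and 233 CPM with DSM and 262, 224 and 222 CPM untreated (log2 fold change −0.27, SE 0.03, adjusted p = 1.05e-05). Every SM library was below every DSM library for MVD and EBP. SQLE, the epoxidase that commits squalene to sterols, had 138, 92.8 and 105 CPM with SM, 162, 132 and 129 CPM with DSM and 162, 132 and 127 CPM untreated (log2 fold change −0.34, SE 0.04, adjusted p = 2.21e-05). A match to the sterol regulatory element letters TCACNCCAC within the same 250 bases was found in 0.802% of all promoters and in 1 of 19 of the list, which was not a called gene.

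Fatty acid synthesis followed in part. Of 21 tested genes, 3 were lower (SREBF1, SCD and ACSS2) and 1, ME1, was higher, with a median of −0.08. SREBF1, the gene for SREBP1, had 142, 124 and 126 CPM with SM, 157, 138 and 143 CPM with DSM and 168, 137 and 146 CPM untreated (log2 fold change −0.16, SE 0.03, adjusted p = 0.0052). Each pair showed SM below DSM, although the groups overlapped. The desaturase SCD had a log2 fold change of −0.16 (SE 0.04, adjusted p = 0.0133), lost without SM replicate 2 (0.103) or DSM replicate 2 (0.139). The acetyl-CoA synthetase ACSS2, with a log2 fold change of −0.20 (SE 0.06, adjusted p = 0.0453), was lost with any single library left out other than SM replicate 2, at 0.0671 to 0.218.

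**Figure D3:**
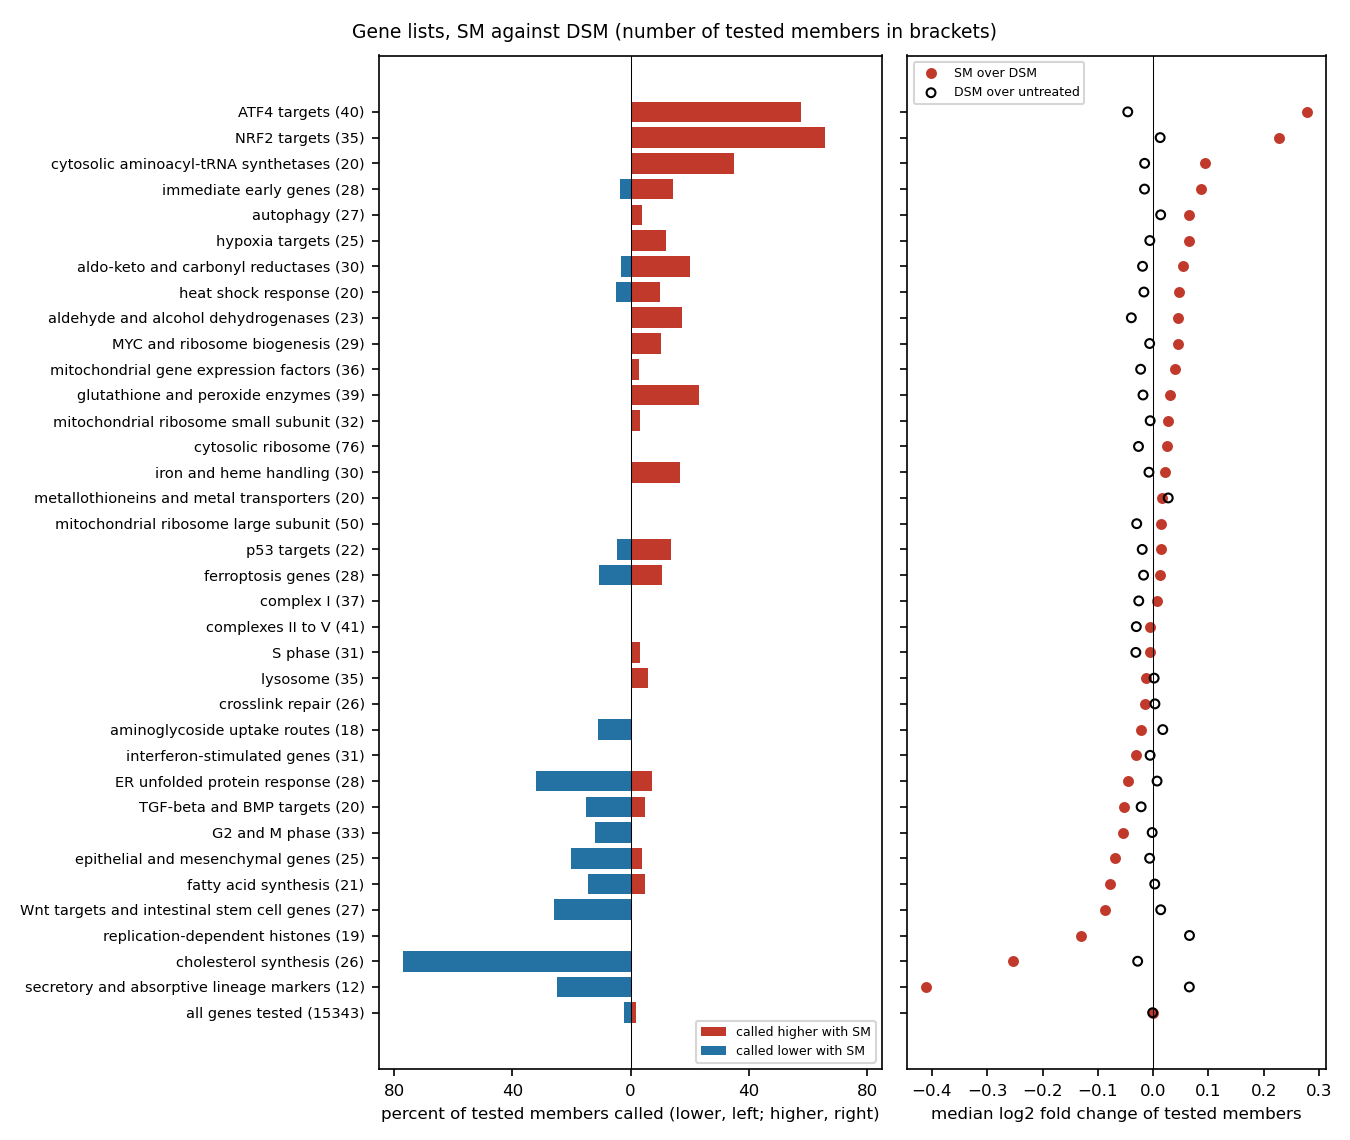
Gene lists ordered by median log2 fold change, with tested members in brackets. Left, percent of tested members called higher (red) or lower (blue) with SM than with DSM; right, median log2 fold change of SM over DSM (red) and of DSM over untreated (open). ATF4 and NRF2 targets (medians 0.28 and 0.23) and cholesterol synthesis (−0.25) lie far from all genes tested (0.00). The lowest median, −0.41, is that of the 12 tested secretory and absorptive lineage markers, of which 3 were called lower.

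ER folding genes were lower while 2 stress genes of the same list were higher. Of 28 tested, 9 were lower and 2 higher, with a median of −0.05. The lower ones were the chaperones HSPA5, HSP90B1, CALR, HYOU1 and DNAJB11, the disulfide isomerases PDIA3, PDIA4 and PDIA6, and the secreted factor MANF. Only 4 were lower without DSM replicate 2 and 5 without DSM replicate 3. Calreticulin CALR, a calcium-binding lectin chaperone, had 663, 549 and 557 CPM with SM, 762, 684 and 715 CPM with DSM and 769, 689 and 671 CPM untreated (log2 fold change −0.29, SE 0.04, adjusted p = 1.46e-05). HSPA5, the chaperone BiP, had 478, 401 and 386 CPM with SM, 546, 471 and 453 CPM with DSM and 565, 472 and 436 CPM untreated (log2 fold change −0.22, SE 0.03, adjusted p = 0.000183). PDIA4 had 268, 252 and 256 CPM with SM, 308, 291 and 299 CPM with DSM and 310, 299 and 287 CPM untreated (log2 fold change −0.21, SE 0.03, adjusted p = 0.000249). CALR and PDIA4 did not overlap between the compounds, HSPA5 did. Of the higher pair, PPP1R15A, the phosphatase subunit GADD34 that reverses eIF2α phosphorylation, had 134, 176 and 132 CPM with SM, 110, 143 and 117 CPM with DSM and 116, 142 and 108 CPM untreated (log2 fold change 0.25, SE 0.04, adjusted p = 0.000128). HERPUD1, an ER-associated degradation factor named after its value was seen, had a log2 fold change of 0.18 (adjusted p = 0.0361) and its pairs differed in direction. It was not called without DSM replicate 2 (0.246), SM replicate 3 (0.235), DSM replicate 3 (0.219) or SM replicate 2 (0.175), nor without any 1 untreated library (0.0553 to 0.0742).

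Among 20 heat shock genes 2 were higher (10%) and 1 lower (5%), against 1.79% and 2.21% of all genes tested. FKBP4, a co-chaperone of HSP90, had 241, 329 and 310 CPM with SM, 215, 289 and 270 CPM with DSM and 215, 298 and 291 CPM untreated (log2 fold change 0.18, SE 0.03, adjusted p = 0.00104). HSPA1B, near-identical to HSPA1A, had a log2 fold change of 0.16 (adjusted p = 0.0195) and was not called without DSM replicate 2 (0.197), DSM replicate 3 (0.112), SM replicate 3 (0.0786) or SM replicate 2 (0.0638). Over untreated cells the log2 fold change of HSPA1B was 0.06 with SM and −0.10 with DSM, neither of them called. The small heat shock protein HSPB1 had a log2 fold change of −0.22 (SE 0.05, adjusted p = 0.00668). It was not called without SM replicate 2 (0.088), SM replicate 3 (0.117) or DSM replicate 3 (0.129). In the autophagy list of 27, SQSTM1, the adaptor p62 that also binds KEAP1, was the 1 called gene (3.7%, against 1.79% higher over all genes). It had 584, 654 and 553 CPM with SM, 475, 459 and 462 CPM with DSM and 445, 469 and 415 CPM untreated. The groups did not overlap, with a log2 fold change of 0.36 (SE 0.04, adjusted p = 5.44e-06). Cathepsin CTSB, a lysosomal protease, had 126, 143 and 129 CPM with SM, 107, 121 and 108 CPM with DSM and 109, 124 and 109 CPM untreated (log2 fold change 0.24, SE 0.03, adjusted p = 3.5e-05). TFE3, a regulator of lysosomal genes, had a log2 fold change of 0.17 (adjusted p = 0.00664, lost without DSM replicate 1 at 0.0618 or DSM replicate 2 at 0.0726). CTSB and TFE3 were the 2 called of 35 lysosome genes (5.71%, against 1.79% higher over all genes).

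MYC, the growth regulator, stood at 741, 1051 and 956 CPM with SM, 610, 729 and 708 CPM with DSM and 600, 753 and 707 CPM untreated. The SM and DSM libraries did not overlap (log2 fold change 0.41, SE 0.04, 95% interval 0.33 to 0.49, adjusted p = 3.96e-07). MXI1, an antagonist that competes for the partner MAX, had 10.0, 19.1 and 16.1 CPM with SM, 8.55, 12.9 and 11.2 CPM with DSM and 7.80, 13.8 and 12.3 CPM untreated (log2 fold change 0.45, SE 0.07, adjusted p = 0.000381). Of 29 genes of MYC and ribosome biogenesis, 3 were higher and 0 lower, with a median of 0.04. The third, RRP12, was called only without SM replicate 3 among the fits with 1 library left out, at 0.0826 to 0.253 in the other 8. None of the 76 cytosolic ribosomal protein genes was called by edgeR, DESeq2 or voom with the block (2 at an unadjusted p under 0.05 in edgeR). Of these, 75 had 95% intervals within 0.322 of 0. Without SM replicate 1, or without all libraries numbered 1, edgeR called 5 of them higher.

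Tenascin TNC, an extracellular matrix glycoprotein, had 541, 215 and 197 CPM with SM, 678, 346 and 308 CPM with DSM and 716, 338 and 272 CPM untreated (log2 fold change −0.55, SE 0.06, adjusted p = 0.000107). Libraries numbered 1 were high in every group, and each SM library was below its DSM partner. It was among 5 lower and 1 higher of 25 epithelial and mesenchymal genes, with the keratin KRT19, the cadherin CDH1, fibronectin FN1 and vimentin VIM. Only TNC kept its call with every single library left out, and the number of lower genes was 1 without DSM replicate 2, 2 without DSM replicate 3 and 3 without SM replicate 3. The higher gene was SNAI1, a repressor of CDH1 (log2 fold change 0.18, adjusted p = 0.0428), called in 1 of the 9 fits with a library left out. KRT19 (log2 fold change −0.14, adjusted p = 0.0163) was lost without DSM replicate 2 (0.139), and CDH1 (log2 fold change −0.27, adjusted p = 0.0361), an epithelial marker, without DSM replicate 2 (0.237), among others. SNAI1 was named after its value was seen. The epithelial marker EPCAM was not called, at 461, 416 and 414 CPM with SM, 454, 440 and 423 CPM with DSM and 463, 431 and 419 CPM untreated (95% interval of the log2 fold change −0.10 to 0.04).

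Wnt feedback and intestinal stem cell genes were lower in 7 of 27 cases and higher in 0, with a median of −0.09. The count was 4 without DSM replicate 2 or without DSM replicate 3. NKD1, a Wnt feedback inhibitor, had 2106, 1618 and 1736 CPM with SM, 2379, 1838 and 1984 CPM with DSM and 2391, 1852 and 1964 CPM untreated (log2 fold change −0.18, SE 0.03, adjusted p = 0.00108). Its difference was nearly equal in the 3 pairs. EPHB2, a receptor of crypt positioning, had 133, 104 and 102 CPM with SM, 147, 117 and 122 CPM with DSM and 145, 114 and 115 CPM untreated (log2 fold change −0.19, SE 0.03, adjusted p = 0.00092). TNFRSF19 (log2 fold change −0.48, SE 0.09, adjusted p = 0.00373) was lost without DSM replicate 3 (0.0524) and PROX1 (log2 fold change −0.17, SE 0.04, adjusted p = 0.00689) without DSM replicate 2 (0.0904). The crypt stem cell marker LGR5 had 55.9, 39.5 and 43.6 CPM with SM, 56.7, 47.0 and 51.8 CPM with DSM and 53.9, 44.4 and 48.2 CPM untreated. Its log2 fold change of −0.17 (SE 0.05, adjusted p = 0.041) held only without SM replicate 1 or without DSM replicate 1, and was otherwise at 0.0553 to 0.236.

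Only 12 of 26 secretory and absorptive lineage markers passed the filter, of which 3 were lower and 0 higher. SPDEF, a goblet cell transcription factor, had 2.24, 0.813 and 1.04 CPM with SM, 3.26, 1.97 and 1.91 CPM with DSM and 2.79, 1.41 and 1.78 CPM untreated (log2 fold change −0.82, SE 0.16, adjusted p = 0.00351). AGR2, a disulfide isomerase of mucus-secreting cells, had 15.3, 8.54 and 7.79 CPM with SM, 18.8, 10.5 and 12.4 CPM with DSM and 18.02, 9.83 and 10.5 CPM untreated (log2 fold change −0.41, SE 0.07, adjusted p = 0.00139). Both groups overlapped, since the libraries numbered 1 were high throughout. Villin VIL1, a microvillus protein, had a log2 fold change of −0.14 (SE 0.03, adjusted p = 0.00762), lost without DSM replicate 2 (0.0605). Among 20 TGF-beta and BMP genes, 3 were lower and 1 higher. The ligand BMP4 had 225, 150 and 152 CPM with SM, 251, 180 and 188 CPM with DSM and 242, 178 and 175 CPM untreated (log2 fold change −0.24, SE 0.03, adjusted p = 0.00011). TGFBI (log2 fold change −0.19, adjusted p = 0.0053) was lost without DSM replicate 3 (0.0924) or SM replicate 3 (0.0591), and BMPR2 (log2 fold change −0.16, adjusted p = 0.038) without DSM replicate 2 (0.218), among others.

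A few mitotic genes were lower. Of 33 G2 and M phase genes, 4 were lower (12.1%, against 2.21% of all genes) and 0 higher, with a median of −0.05 (2 lower without DSM replicate 2). Of 31 S phase genes 1, GINS3, was higher (3.23%, against 1.79% of all genes). ANLN, a scaffold of the cleavage furrow, had 260, 209 and 210 CPM with SM, 280, 253 and 235 CPM with DSM and 274, 244 and 226 CPM untreated (log2 fold change −0.18, SE 0.03, adjusted p = 0.0026). The proliferation marker MKI67 had 1069, 932 and 1009.5 CPM with SM, 1141, 1103 and 1108 CPM with DSM and 1111, 1108 and 1045 CPM untreated. Its groups did not overlap (log2 fold change −0.16, SE 0.04, adjusted p = 0.0164), yet it was not called without SM replicate 2 (0.12), DSM replicate 2 (0.0929) or DSM replicate 3 (0.0963). CENPE (log2 fold change −0.24, adjusted p = 0.00561) was lost without DSM replicate 1 (0.0673), and DLGAP5 (log2 fold change −0.18, adjusted p = 0.00561) without DSM replicate 2 (0.0653). GINS3, of the replicative helicase, had a log2 fold change of 0.17 (adjusted p = 0.0318) and was lost without DSM replicate 2 (0.24), among others. CDKN1A, the cell cycle inhibitor p21, was not called (log2 fold change 0.17, 95% interval −0.01 to 0.35).

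Mitochondria keep a ribosome of bacterial ancestry, so its proteins and the respiratory chain subunits were looked at next. Of 82 ribosomal proteins of mitochondria, 1 was called, the small subunit protein MRPS35, at 153, 154 and 155 CPM with SM, 141, 145 and 137 CPM with DSM and 146, 151 and 148 CPM untreated. Its log2 fold change was 0.13 (SE 0.03, adjusted p = 0.0228), with untreated between the compounds, and it was not called without SM replicate 3 (0.106), DSM replicate 3 (0.155) or 4 of the other 7 libraries. Of 36 factors of mitochondrial gene expression, the helicase TWNK, which unwinds mitochondrial DNA, was called at 91.3, 106 and 108 CPM with SM, 81.8, 97.1 and 92.7 CPM with DSM and 82.0, 96.0 and 91.4 CPM untreated (log2 fold change 0.17, SE 0.03, adjusted p = 0.00443). MRPS12, the counterpart of the bacterial protein in which streptomycin resistance arises, had 70.0, 79.1 and 74.5 CPM with SM, 69.6, 71.9 and 73.9 CPM with DSM and 70.1, 74.9 and 78.5 CPM untreated. It was not called, and its 95% interval ran from −0.03 to 0.13. None of 78 nuclear genes of complexes I to V was called by edgeR, DESeq2 or voom with the block (2 of complex I and 1 of the others at an unadjusted p under 0.05 in edgeR), and the 95% interval of every one lay within 0.322 of 0. NDUFS6, ATP5F1B and CYCS had intervals of −0.02 to 0.12, −0.05 to 0.09 and −0.08 to 0.07. Transcripts of the mitochondrial genome itself were not analysed here, and 0 of them are in the table used.

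**Figure D4:**
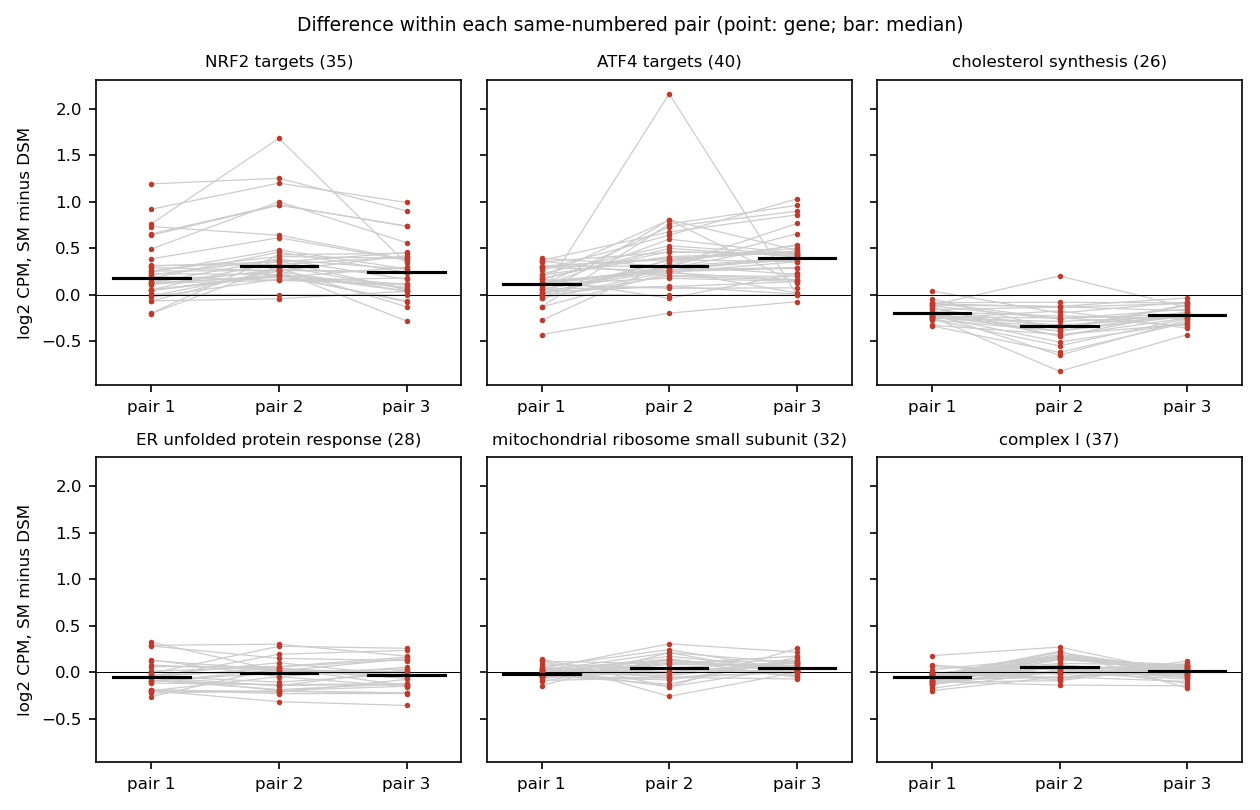
Log2 CPM difference of SM minus DSM within each same-numbered pair for the tested members of 6 lists (point: gene; line: the same gene across pairs; bar: median). NRF2 targets lie mostly above 0 and cholesterol genes below 0 in all 3 pairs, ATF4 targets have medians of 0.11, 0.31 and 0.39, and the mitochondrial lists stay near 0.

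A list drawn up for routes by which aminoglycosides enter cells held 2 called genes of 18 tested, both lower. They made up 11.1% of the list, against 2.21% lower over all genes tested. DAB2, an adaptor for endocytosis through megalin, had 41.9, 21.8 and 23.7 CPM with SM, 44.6, 29.0 and 30.7 CPM with DSM and 42.6, 26.1 and 26.7 CPM untreated (log2 fold change −0.28, SE 0.05, adjusted p = 0.00351, lost without SM replicate 3 at 0.0539 or DSM replicate 3 at 0.0592). TMC8, a relative of the hair cell channel proteins, had a log2 fold change of −0.42 (SE 0.08, adjusted p = 0.00584). Its call was lost without SM replicate 2 (0.122), DSM replicate 2 (0.069) or DSM replicate 3 (0.0587). Over untreated cells the log2 fold change of TMC8 was −0.25 with SM and 0.17 with DSM, neither of them called. Megalin itself, LRP2, was not tested, with at most 3 counts in a library. Interferon-stimulated genes (31 tested), metallothioneins and metal transporters (20) and replication-dependent histones (19) had 0 calls in edgeR, DESeq2 or voom with the block, with 5, 4 and 2 genes at an unadjusted p under 0.05 in edgeR, although just 3 of the 19 histones had intervals within 0.322 of 0. With single libraries left out, edgeR called 2 interferon-stimulated genes lower without SM replicate 1 and 1 without SM replicate 2 or DSM replicate 1. In the metal list it called 3 higher without SM replicate 2 or untreated replicate 1 and 1 without DSM replicate 1. Ferroptosis genes were split, with 3 higher and 3 lower of 28. The ubiquinone synthesis kinase COQ8A had 33.6, 59.7 and 51.8 CPM with SM, 27.4, 42.4 and 39.8 CPM with DSM and 27.8, 43.6 and 41.2 CPM untreated (log2 fold change 0.39, SE 0.04, adjusted p = 8.88e-06). SAT1, which acetylates spermidine, was lower (log2 fold change −0.19, SE 0.03, adjusted p = 0.000989). Immediate early genes had 4 higher and 1 lower of 28. FOSB (log2 fold change 0.45, adjusted p = 0.0106) was lost without SM replicate 2 (0.0596) or DSM replicate 2 (0.143). IER2, named after its value was seen, was lost with each of the 9 libraries left out. ETV4 was lost with all but SM replicate 1 left out. PHLDA1, the lower one (log2 fold change −0.19, SE 0.03, adjusted p = 0.00171), kept its call with each single library left out. That call was lost without all libraries numbered 3, and without the block. Hypoxia targets had 3 higher of 25, VEGFA, MXI1 and STC2, all named above. Of 22 p53 targets, SESN2, GDF15 and AEN were higher and TP53I3 lower, in a line known to carry mutant p53. AEN was lost without DSM replicate 1 (0.104), and TP53I3 without any single library other than SM replicate 1. LUM, the fibroblast marker lumican, was lower at 12.1, 4.98 and 5.14 CPM with SM, 13.7, 7.25 and 8.96 CPM with DSM and 13.2, 8.21 and 7.43 CPM untreated (log2 fold change −0.46, adjusted p = 0.00956). It was lost without SM replicate 2 (0.0821), SM replicate 3 (0.129) or DSM replicate 3 (0.146), beside the fibroblast genes that had no count.

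Outside these programs, the called genes of at least 1 CPM with the largest differences included several with few known ties to stress. ZNF469, a zinc finger gene linked to collagen of the cornea, had 16.3, 44.995 and 35.1 CPM with SM, 11.7, 23.7 and 20.4 CPM with DSM and 10.9, 25.1 and 20.7 CPM untreated (log2 fold change 0.75, SE 0.06, adjusted p = 2.85e-07). UNC5B, a netrin receptor, had 2.84, 9.81 and 9.65 CPM with SM, 2.02, 4.32 and 5.77 CPM with DSM and 2.16, 5.92 and 6.53 CPM untreated (log2 fold change 0.85, SE 0.11, adjusted p = 2.64e-05). The secreted serine protease HTRA3 had 7.24, 13.5 and 9.14 CPM with SM, 4.28, 6.81 and 6.13 CPM with DSM and 5.51, 7.12 and 4.89 CPM untreated (log2 fold change 0.77, SE 0.10, adjusted p = 6.62e-05). Only HTRA3 of these had groups that did not overlap, and all 3 were called with any single library left out. The long noncoding LINC00942 (log2 fold change 0.94, SE 0.19, adjusted p = 0.00472) was lost without SM replicate 3 (0.0935). MYH4, a muscle myosin, had a log2 fold change of 0.67 (adjusted p = 0.0388) and was lost without DSM replicate 2 (0.349), among others.

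The largest decreases were in scarce transcripts. The transglutaminase TGM5 had 1.73, 0.737 and 0.854 CPM with SM, 2.72, 1.71 and 1.69 CPM with DSM and 2.41, 1.74 and 1.80 CPM untreated (log2 fold change −0.88, SE 0.17, adjusted p = 0.00325). LRRN4, a leucine-rich repeat membrane protein, had 7.11, 3.68 and 4.07 CPM with SM, 8.80, 6.56 and 8.24 CPM with DSM and 10.1, 6.38 and 7.48 CPM untreated (log2 fold change −0.69, SE 0.11, adjusted p = 0.000283). With SPDEF and the long noncoding LINC01206 (log2 fold change −0.68, SE 0.12, adjusted p = 0.00129), these were the members of the 12 largest decreases that kept their calls in every fit with 1 library left out. Of the others, CDK15 had a log2 fold change of −0.94 (SE 0.20, adjusted p = 0.00673), at 0.0893 without DSM replicate 3 and 0.0611 without SM replicate 3. SLC38A4, KLHDC7A, NAALADL1, MIAT, OLFML3 and LINC01419 also lost their calls in at least 1 such fit. Of the 6 genes at least 2-fold apart, 4 others had under 1 CPM on average in both groups, and are named after their values were seen. OBI1-AS1 and LCAL1 were higher with SM (log2 fold changes 1.47 and 1.01), and ANKRD20A9P and SNORD144 lower (−1.21 and −1.79). All 4 lost their calls without SM replicate 2, among others, at 0.354, 0.149, 0.0641 and 0.0622.

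Each compound was also set against untreated cells. SM against untreated called 429 genes (2.8%), 185 of them higher (1.21%) and 244 lower (1.59%), and DSM against untreated called 0, with 639 genes at an unadjusted p under 0.05 and a smallest adjusted p of 0.524. DESeq2 and voom with the block also called 0, at 271 and 677 genes with an unadjusted p under 0.05. These comparisons share libraries with each other and with SM against DSM, so they are given side by side only. For NRF2 targets the median log2 fold change was 0.25 for SM over untreated and 0.01 for DSM over untreated. Those medians were 0.22 and −0.05 for ATF4 targets, and −0.27 and −0.03 for cholesterol synthesis.

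A call missed does not show that DSM left a gene unaltered, so the intervals are given. The 95% interval of DSM over untreated lay within 0.322 of 0 on the log2 scale for 10729 of 15343 genes (69.9%), and for 9081 of 9109 genes of at least 10 CPM. For AKR1C1 it ran from −0.08 to 0.11 on the log2 scale, for HMOX1 from −0.12 to 0.15, for NQO1 from −0.08 to 0.08 and for HMGCS1 from −0.12 to 0.05. For AKR1B10 it ran from −0.02 to 0.93, which leaves a wide range. For AKR1C3 the interval of DSM over untreated, 0.01 to 0.18, lay just above 0, without a call. Other named genes, also not called in this comparison, had intervals off 0 in either direction. DSM lay below untreated for UNC5B (−0.49 to −0.03) and HSPA1B (−0.18 to −0.02). It lay above untreated for DAB2 (0.03 to 0.25), TMC8 (0.01 to 0.34), MIAT (0.04 to 0.62) and LINC01206 (0.02 to 0.48). Between SM and DSM, 10055 genes (65.5%) had intervals within 0.322 of 0, and 8816 of the 9109 genes of at least 10 CPM.

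**Figure D5:**
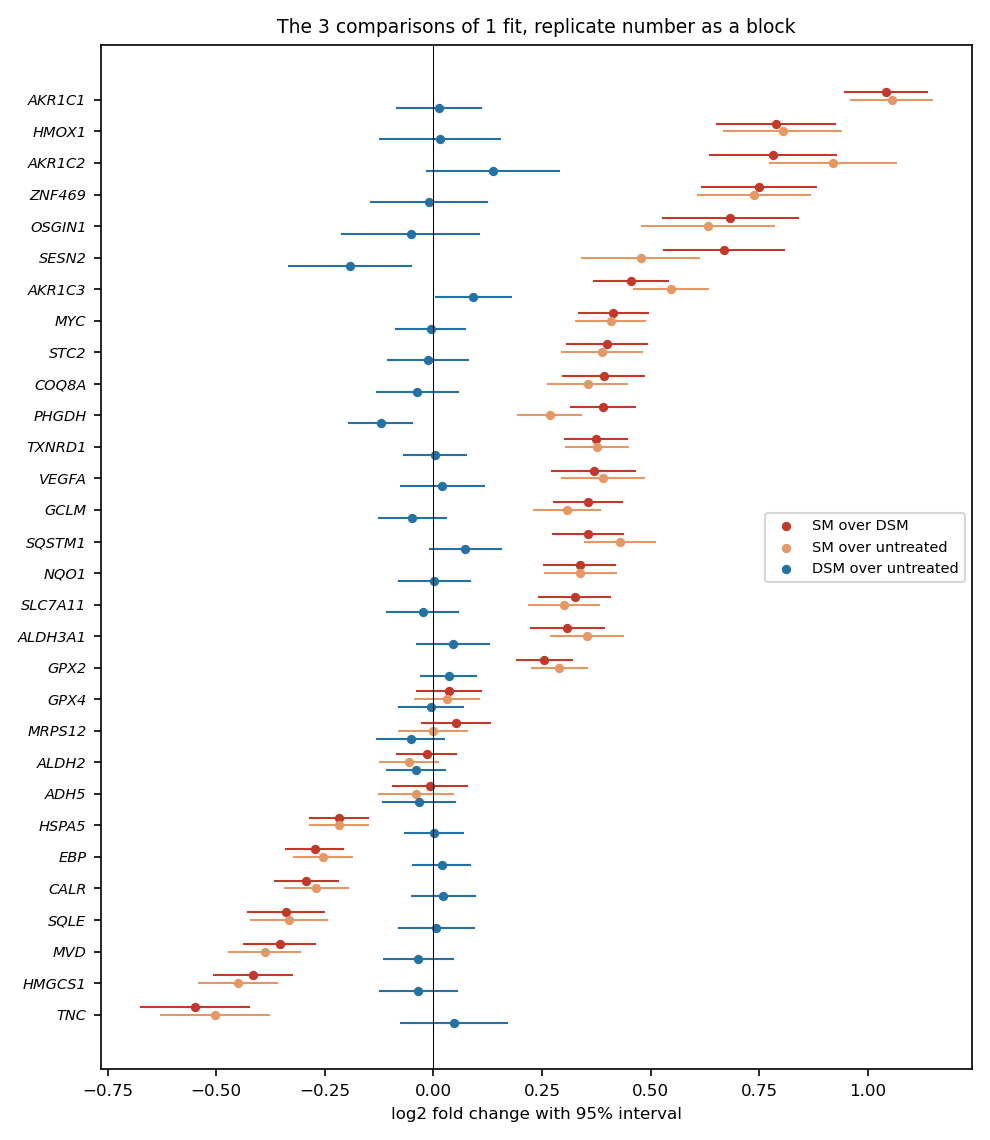
Log2 fold changes with 95% intervals for 30 genes in 1 fit, for SM over DSM (red), SM over untreated (orange) and DSM over untreated (blue). Red and orange points lie close together, and blue intervals include or lie near 0, the farthest being SESN2 at −0.19.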

How the data were processed

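Poly(A) RNA of 9 SW620 cultures was sequenced from total RNA extracted with TRIzol, in libraries of the NuGEN Universal Plus mRNA-seq kit, per the labels' protocols. The values used were the raw whole-number counts per gene that the authors deposited without normalization. The submitters' processing notes name the build hg38, bcl2fastq 2.20.0.422, cutadapt 3.4, TopHat2 2.1.1, featureCounts 2.0.0 and DESeq2 1.26.0. None of the sources used here gives the strand setting, the annotation or how multi-mapping reads were handled. The deposited normalized table was not used.

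Genes with at least 10 counts in at least 3 of the 6 SM and DSM libraries were tested (15343 of 28307). In R 4.3.3, edgeR 4.0.16 with TMM scaling fitted all 9 libraries, with the replicate number as a block and robust estimation, and two-sided quasi-likelihood F tests were adjusted by Benjamini-Hochberg at 0.05. SE is the log2 fold change over the root of F, and the 95% interval uses the t distribution with the fit's degrees of freedom. CPM uses TMM-scaled library sizes. Coordinates and promoters are from RefSeq GRCh38.p14, matched by gene ID (15152 of the tested genes).

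The labels number replicates 1 to 3 in each group. Deviations from the group means correlated at 0.865, 0.585 and 0.606 between SM and DSM libraries of the same number. Between different numbers they correlated at −0.711 to 0.438. Deviations within a group sum to 0 and replicate 1 lay apart, so values below 0 between it and the others say little about pairing. Between replicates 2 and 3 the different numbers correlated at 0.438 and 0.376. The numbers were taken as pairs because the rule of the comparison names them as a block, not from these values. Counts of replicates differed by more than sampling noise, with a chi-square per degree of freedom of 7.40 to 36.3. P-values weigh each difference against the spread left between these cultures after the replicate number was fitted as a block.

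Named genes are up to 12 per direction with the largest called difference among those of at least 1 CPM and the same direction in all pairs, leaving out pseudogenes and clone names, up to 4 called members of each list by p (for a list with none, its 2 members of highest level), and 24 genes whatever their call. Some genes that the rule names are not reported here. Other genes named are said to have been chosen after their values were seen or are full enumerations of a list's called members. The comparison, lists and rules were chosen with earlier results of these data known. The fit was tested on simulated counts. Alternatives were no block, other scaling and filters, DESeq2 1.42.0, limma 3.58.1 voom, only the 6 libraries, no robust estimation, thinned counts and leaving out libraries. DESeq2 and voom without the block were added after the data were seen.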

Additional observations from a re-analysis of the deposited data

How the results depend on the processing

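Without the replicate block edgeR called 0 genes higher and 0 lower with SM than with DSM, against 275 and 339 with it, 3 for SM against untreated (429 with it) and 0 for DSM against untreated. Without the block, DESeq2 called 10 higher, 1 lower and 14 for SM against untreated, and limma voom called 0, 0 and 3. Only the 6 SM and DSM libraries gave 159 higher. No filter gave 519 lower, 701 for SM against untreated and 7 for DSM against untreated. Leaving out 1 library, or all libraries of 1 replicate number with the untreated one, gave 72 to 365 higher and 58 to 491 lower. The same fits gave 112 to 580 for SM against untreated, and 0 to 1 for DSM against untreated. All other scalings, filters and tools with the block were within 1.5 times. The called genes kept their direction in every one, though these fits use the same libraries. Some genes that were not called changed the sign of their log2 fold change when libraries were left out: MRPL3 (−0.02552 to 0.04968), NDUFB9 (−0.002737 to 0.03957), ATP5F1B (−0.01649 to 0.05097), CYCS (−0.05916 to 0.03678), GPX4 (−0.01228 to 0.09071), ALDH2 (−0.04377 to 0.01527) and ADH5 (−0.05539 to 0.02784). The log2 fold change for ADH5 SM against DSM was also positive in thinned counts (0.01941). The cause was not tested. Intervals were wider for scarce genes: 65.5% of all genes, but 8816 of 9109 of at least 10 CPM, had intervals within 0.322 of 0 on the log2 scale. Whether depth sets this was not tested.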
